A study of Mus musculus with 8 samples.

Results

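Mitosis divides the duplicated chromosomes between a pair of daughter cells. A cyclin-bound kinase starts it, condensin compacts the chromosomes, kinetochores tie them to the spindle, and a checkpoint holds separase back until every chromosome is attached. Transcripts for this machinery are made late in the cell cycle and are scarce in resting lymphocytes, so in T cells they serve as markers of division. The 55 genes described here are members of this machinery, taken by symbol from the 21524 genes of the deposited table, and all 55 were found. The list runs from the kinases and cyclins of mitotic entry to the proteins of cytokinesis, and it was chosen with earlier results of these data known.

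The RNA came from regulatory T cells (Tregs), the Foxp3-dependent CD4 T cells that restrain immune responses, sorted from mouse spleen. There were 4 libraries labelled with the treatment IL-2 (replicates 41 to 44) and 4 labelled control (replicates 45 to 48). Tregs need the cytokine IL-2 to persist, and the series text describes a mutein of it tested with CTLA-4 Ig, a blocker of co-stimulation, in C57BL/6 recipients of BALB/c hearts or kidneys. The labels for these 8 libraries give no strain, age, dose or time, nor whether the mice carried a graft, received CTLA-4 Ig or received the mutein rather than IL-2 itself. They do not say whether each library was 1 animal, so every p-value rests on spread among libraries that may be technical.

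Depth was 4953547 to 6399418 reads per IL-2 library and 4970820 to 6147506 per control library, as recovered from the deposited values. The Treg and T cell markers were present in all 8 libraries, among them Foxp3 at 1643 to 2235 normalised reads with IL-2 and 1123 to 1799 in controls. Il2ra was higher, at 16865 to 20453 with IL-2 and 6094 to 7703 in controls. Cd4 was lower, at 2067 to 2927 with IL-2 and 3851 to 4468 in controls. Foxp3, Cd3e, Cd3g, Ctla4 and Ikzf2 overlapped between the groups. Summed markers of other cell types were low in most lists and differed between the groups in several. B cell markers summed to 121 to 241 with IL-2 and 487 to 606 in controls, and monocyte, macrophage and dendritic cell markers to 827 to 1058 with IL-2 and 1629 to 1882 in controls. The NK cell list summed to 0 to 34.9 with IL-2 and 67.2 to 164 in controls, and the CD8 T cell list to 56.2 to 90.2 with IL-2 and 53.4 to 103 in controls. The germinal centre B cell and plasmablast list summed to 42.5 to 104 with IL-2 and 20.1 to 47.6 in controls, of which Mybl1 gave 22.4 to 84.1 with IL-2 and 3.36 to 29.6 in controls, while Gcsam and Tnfrsf17 were at 0. The granulocyte precursor list summed to 126 to 179.7 with IL-2 and 0 to 3.59 in controls, nearly all of it Ltf, while Elane, Prtn3, Camp and S100a9 were at 0. The erythroid list summed to 0 to 43.5 with IL-2, the highest in library 44, and 0 to 84.9 in controls, with Klf1 and Epor at 0. The megakaryocyte and platelet list summed to 1.01 to 19.0 with IL-2 and 5.44 to 53.1 in controls. The Y-linked gene Ddx3y was at 0 in IL-2 libraries 41 and 42 and control library 45, and present in the other 5 libraries. The part of these cells in the mitotic transcripts was not tested. For Ddx3y, its presence was added to the fit described below as a covariate. The median difference of the tested mitotic genes was then 0.34 on the deposited log2 scale, against 0.31 without it. The part of the Ddx3y difference was not tested further.

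Many mitotic genes share a promoter element, the cell cycle homology region, through which the MuvB complex holds them silent in resting cells and, with Mybl2 and Foxm1, switches them on in dividing ones. The RefSeq promoter windows (250 bases before to 50 after the transcript start, build GRCm38.p6) held 45 of the 55 genes in 48 windows. Those not matched were Ccna2, Cdc25c, Foxm1, Smc4, Esco2, Aurkb, Incenp, Spc24, Tpx2 and Kif20a. The letters TTTGAA, or the variant with letters TTTAAA, or that with letters TTCGAA, on either strand, occurred in 42 of the 48 windows (87.5%), against 28.8% of all 32851 windows in the table. CCAAT, on either strand, occurred in 35 of them (72.9%), against 37.4% of all. The E2F letters TTTGGCGC or TTTCGCGC, on either strand, occurred in 3 (6.25%), against 0.813% of all. Near the start, from 50 bases before to 50 after, a span chosen after the matches were seen, 36 of the 48 member windows (75%) held the first of these elements, against 8.62% of all windows.

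The 150 bases before the start are printed for the 5 genes with the most reads among those whose window held the element, with its letters in capitals. The element is named here by its letters alone. Whether a match acts as a cell cycle homology region was not tested. Cdk1 and Ccnb1 were added after their values were seen, because Cdk1 rose with IL-2 and Ccnb1 did not pass the test although both hold the element. The stretches lie at chr7:135716380-135716529 on the minus strand for Mki67, chr11:99024190-99024339 on the minus strand for Top2a, chr8:57511693-57511842 on the plus strand for Hmgb2, chr4:52439071-52439220 on the plus strand for Smc2, chr6:125191587-125191736 on the minus strand for Ncapd2, chr10:69352913-69353062 on the minus strand for Cdk1 and chr13:100786487-100786636 on the minus strand for Ccnb1.
Mki67: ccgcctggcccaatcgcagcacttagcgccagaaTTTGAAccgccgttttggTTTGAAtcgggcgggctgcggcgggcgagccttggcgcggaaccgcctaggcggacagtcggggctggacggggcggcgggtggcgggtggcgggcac
Top2a: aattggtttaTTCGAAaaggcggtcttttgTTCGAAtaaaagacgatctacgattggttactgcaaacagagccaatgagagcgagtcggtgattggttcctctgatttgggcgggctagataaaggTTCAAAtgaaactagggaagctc
Hmgb2: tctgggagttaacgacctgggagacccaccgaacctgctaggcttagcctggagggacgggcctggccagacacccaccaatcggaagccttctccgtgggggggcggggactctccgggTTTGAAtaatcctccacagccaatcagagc
Smc2: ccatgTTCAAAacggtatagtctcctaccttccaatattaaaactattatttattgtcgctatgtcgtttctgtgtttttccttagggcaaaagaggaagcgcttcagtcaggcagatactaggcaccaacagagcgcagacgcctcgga
Ncapd2: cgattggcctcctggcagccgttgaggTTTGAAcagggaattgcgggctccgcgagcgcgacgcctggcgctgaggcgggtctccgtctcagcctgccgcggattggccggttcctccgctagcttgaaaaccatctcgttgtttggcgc
Cdk1: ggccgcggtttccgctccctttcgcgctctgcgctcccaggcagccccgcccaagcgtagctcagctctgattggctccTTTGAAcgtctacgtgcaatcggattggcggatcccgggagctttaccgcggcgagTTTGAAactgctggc
Ccnb1: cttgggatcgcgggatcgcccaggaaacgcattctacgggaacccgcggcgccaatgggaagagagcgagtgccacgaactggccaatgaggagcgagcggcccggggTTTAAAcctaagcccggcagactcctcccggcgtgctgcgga
Top2a held 3 copies in this stretch, and Mki67 and Cdk1 held 2 each. The copies of Mki67 began 116 and 98 bases before the start, those of Cdk1 71 and 15 bases before it, and that of Ccnb1 42 bases before it. By response, 21 of 25 matched genes that rose with IL-2 held the element in their window, and 18 of 20 that did not pass the test.

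**Figure D1:**
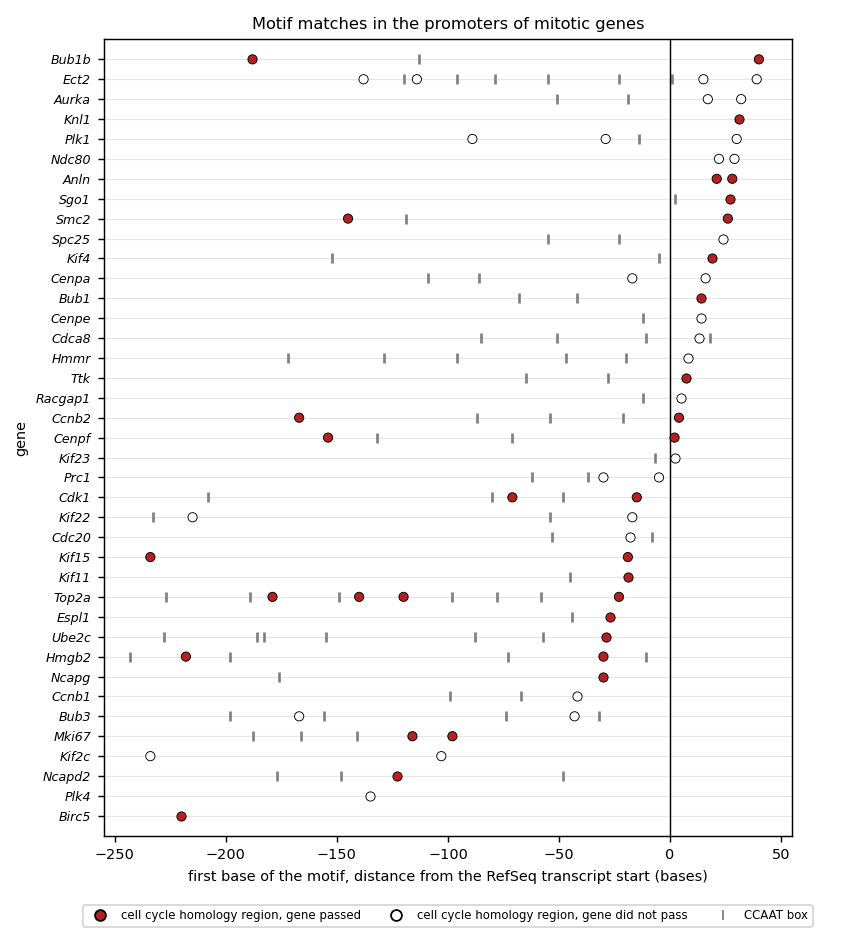
Positions of promoter matches for the 39 mitotic genes whose RefSeq window held the letters of a cell cycle homology region. The horizontal axis is the distance of the first base from the transcript start in bases. Filled circles are genes that rose with IL-2, open circles genes that did not pass the test, and grey ticks CCAAT boxes. Of 63 matches, 41 begin no more than 50 bases before the start or after it. Matches are counted per window, so sites in overlapping windows of Bub3, Ect2 and Prc1 count more than once.

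The question for these genes was whether sorted Tregs carried more or less of them after IL-2. Of the 55 genes, 54 had enough reads to be tested, 30 rose with IL-2 and 0 fell, while 11.2% of all 10433 tested genes rose and 9.37% fell. Among the 24 that did not pass the threshold, 22 had a positive difference. The test was limma on the deposited variance-stabilised values, with p-values adjusted over all tested genes and a threshold of 0.05. The median difference of the 54 genes was 0.31 on the deposited log2 scale, against -0.00 for all tested genes, and 1.10 on a log2 scale of normalised reads plus 5. On that scale 30 rose and 0 fell, where 11.1% of all tested genes rose, 9.25% fell and 20.3% passed in either direction. The scales shared 29 of these genes. Cenpe passed only on log2 reads (limma adjusted p = 0.045), where Ncaph did not (adjusted p = 0.0633). In all, 35 of the 55 genes had at least 2-fold more normalised reads with IL-2, as did 5.45% of tested genes. The 4 IL-2 libraries lay wholly above the 4 controls for 30 of the 55 genes, 27 of which passed the test, against 13.1% of tested genes. Bulk RNA cannot tell apart more dividing cells and more RNA of these genes per cell.

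The rises were uneven among the IL-2 libraries. Library 44 was the highest of all 8 libraries for 48 of the 55 genes. Without it 26 genes rose and 1 fell, where 10.3% of tested genes rose and 8.39% fell, and 25 of the 26 were among the original 30. Cdk1, Kif4, Nusap1, Ncaph and Mybl2 no longer passed, Cenpe did, and Smc4 was the gene that fell. Of the 30 rises, 18 held with any 1 of the 8 libraries left out; Ccnb2, Aurkb, Birc5, Nuf2, Ncapg, Anln and Hmgb2 held without library 44 but missed the threshold without at least 1 other library, and 21 genes rose without control library 45 or without control library 47. On log2 reads without library 44, 25 rose and 1 fell, where 9.93% of tested genes rose and 8.36% fell. The stricter filter of an earlier analysis required a value 1 unit above the lowest in 4 of 8 libraries. It tested 18 of the 55 genes, of which 12 rose and 1 fell, where 16.8% of genes rose and 14.6% fell. That filter can let a gene in through its IL-2 libraries alone, as it did Bub1b and Kif15. Its counts are therefore a description. Genes with at least 2-fold more reads without library 44 numbered 20, against 5.08% of tested genes.

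**Figure D2:**
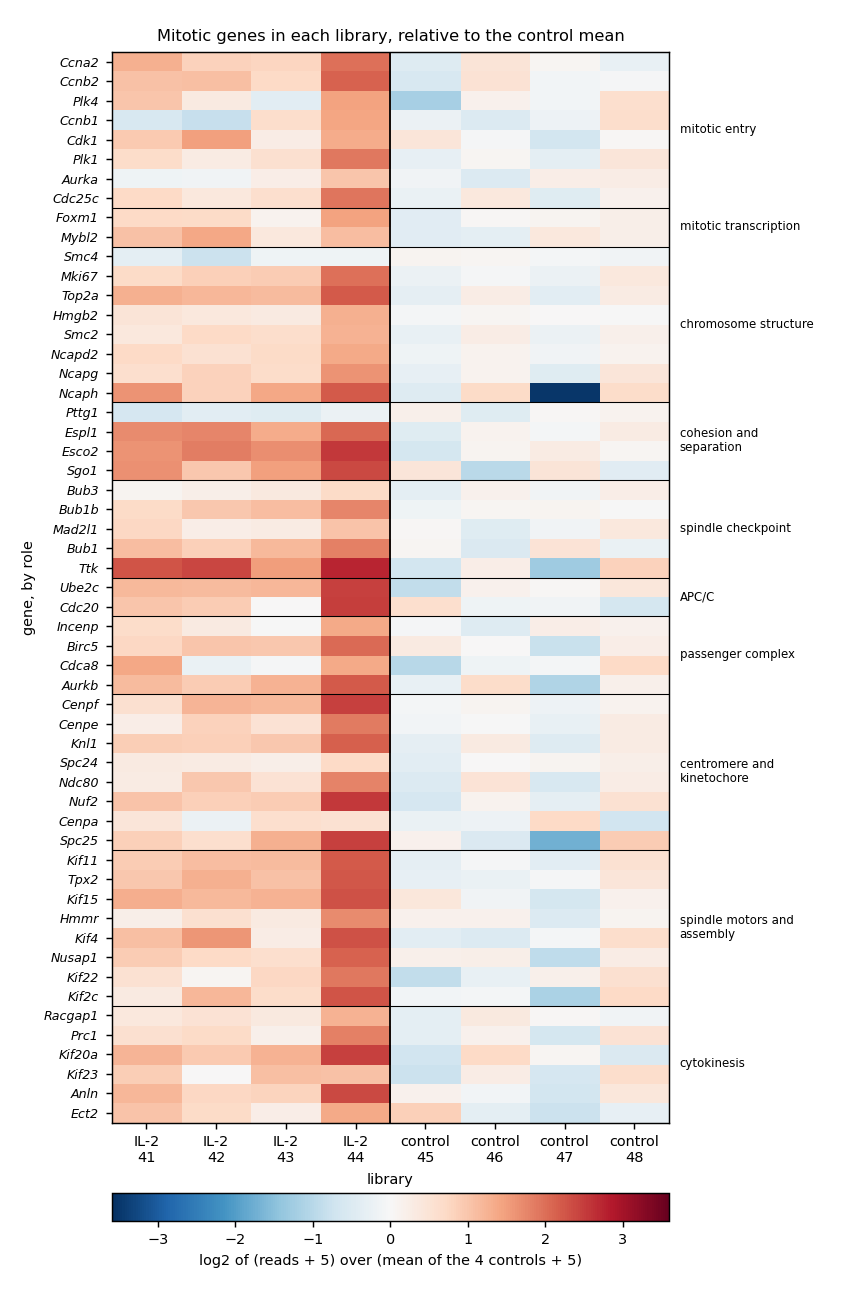
Normalised reads of the 55 mitotic genes (rows, by role) in the 4 IL-2 and 4 control libraries (columns), as log2 of reads plus 5 over the mean of the controls plus 5. Red is above the control mean and blue below it; library 44 is the darkest column, and Smc4 and Pttg1 are the rows without red among the IL-2 libraries.

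All values by library that follow are normalised reads, in the order 41, 42, 43, 44 with IL-2 and 45, 46, 47, 48 in controls, and folds are ratios of group means of these reads. They are counts per gene not divided by transcript length, so levels of different genes are not compared. A count of 100 reads carries a counting error of 10%, and 20 of the 55 genes averaged fewer.

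Entry into mitosis is driven by Cdk1 bound to cyclin A2 (Ccna2), then cyclins B1 and B2 (Ccnb1, Ccnb2). Of the 7 genes of mitotic entry tested, 3 rose, among them Ccna2 and Ccnb2 but not Ccnb1. Ccna2 had 224, 163, 156 and 368 normalised reads in the IL-2 libraries, against 64.4, 127, 94.7 and 73.6 in the controls, 2.53-fold higher (limma adjusted p = 0.0127). Ccnb2 had 162, 168, 129 and 348 normalised reads in the IL-2 libraries, against 49, 111, 70.1 and 74.2 in the controls, 2.66-fold higher (adjusted p = 0.0168). For both cyclins every IL-2 library lay above every control and library 44 stood well above the other IL-2 libraries. Ccnb1 differed from them, with 42.7, 35.3, 106 and 185 normalised reads in the IL-2 libraries, against 56.9, 45.8, 57.7 and 105 in the controls (limma adjusted p = 0.687, 95% interval of the difference -0.15 to 0.30 on the deposited scale before adjustment). Its libraries 41 and 42 lay below every control, and libraries 43 and 44 above them.

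The kinase subunit Cdk1 had 98.3, 143, 59.1 and 128 normalised reads in the IL-2 libraries, against 67.1, 47.1, 28.6 and 50.3 in the controls, 2.22-fold higher (limma adjusted p = 0.0344), with library 43 inside the control range. Without library 44 its fold was 2.08 (adjusted p = 0.084), and it also missed the threshold when any 1 of 5 other libraries was left out. Cdk1 missed it without a filter too (adjusted p = 0.0529). Plk4, the kinase that licenses centriole duplication, had 146, 89.8, 52.6 and 199.8 normalised reads in the IL-2 libraries, against 27.8, 78.8, 65 and 110.1 in the controls (adjusted p = 0.251), and the groups overlapped. The polo kinase Plk1 had 67.6, 51.5, 63.6 and 166 normalised reads in the IL-2 libraries, against 32.7, 43.2, 31.4 and 56.7 in the controls, where library 42 lay inside the control range and library 44 far above (adjusted p = 0.122). The centrosomal kinase Aurka had 31.6, 32.4, 42.7 and 76.4 normalised reads in the IL-2 libraries, against 31.9, 24, 43.1 and 43.5 in the controls (adjusted p = 0.622), and libraries 41 to 43 lay within the control range. Cdc25c, the phosphatase that activates Cdk1, had too few reads for the test, 15.2, 11, 13.9 and 41.7 with IL-2 and 5.44, 11, 4.19 and 8.89 in controls. Without a filter on low values it had an adjusted p of 0.18.

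Foxm1 and Mybl2 encode transcription factors that act on the promoters of late cell cycle genes. Mybl2 had 102, 129, 61.4 and 105 normalised reads in the IL-2 libraries, against 33.6, 34.9, 61.7 and 53.6 in the controls, 2.16-fold higher (limma adjusted p = 0.0263). It is the gene in which library 44 stood least apart, at 1.08 times the mean of libraries 41 to 43, and library 43 lay just below the highest control. Foxm1 had 149.99, 149, 97.5 and 251 normalised reads in the IL-2 libraries, against 66.2, 92.5, 95.7 and 104 in the controls, with library 43 inside the control range (adjusted p = 0.0727).

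Chromosome structure genes gave 7 rises among 8. Mki67 encodes Ki-67, which coats mitotic chromosomes and keeps them apart, and Top2a the topoisomerase that untangles sister DNA. Mki67 had 5332, 5937, 6142 and 13044 normalised reads in the IL-2 libraries, against 2810.3, 3209, 2845 and 4271 in the controls, 2.32-fold higher (limma difference 0.98 ± 0.21 SE, adjusted p = 0.00569). Top2a had 2213, 2063, 2013 and 4162 normalised reads in the IL-2 libraries, against 717, 1094, 692 and 1107 in the controls, 2.89-fold higher (difference 1.03 ± 0.17 SE, adjusted p = 9.24e-04). In both genes libraries 41 to 43 were close together and above all controls, and library 44 stood at 2.25 and 1.99 times their mean. Without library 44 Mki67 was 1.77-fold higher and Top2a 2.32-fold higher, with smaller adjusted p-values (7.48e-04 and 1.69e-04). Hmgb2, a DNA-bending chromatin protein, had 1819, 1722, 1656 and 3177 normalised reads in the IL-2 libraries, against 1245, 1368, 1339 and 1306 in the controls, 1.59-fold higher (adjusted p = 0.0263), again with no overlap.

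Condensin compacts chromosomes and contains the ATPases Smc2 and Smc4. Smc2 had 605, 773, 729 and 1130.3 normalised reads in the IL-2 libraries, against 385, 558, 399.8 and 526 in the controls, 1.73-fold higher (limma adjusted p = 0.0124). Its partner Smc4 had 6028, 4509, 6931 and 6968 normalised reads in the IL-2 libraries, against 8309, 8066, 7397 and 7144 in the controls, 1.27-fold lower (adjusted p = 0.0515). All 4 IL-2 libraries of Smc4 lay below all 4 controls. Smc4 missed the threshold here and passed as a fall without library 44 (adjusted p = 0.0273). The condensin I subunit genes Ncapd2, Ncapg and Ncaph rose 1.83-fold, 2.02-fold and 3.2-fold (adjusted p = 0.0046, 0.0237 and 0.0279). Ncaph was listed at 0 in control library 47 and at 36.3 to 87.3 in the other controls, and it did not pass without library 44 (adjusted p = 0.0731).

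**Figure D3:**
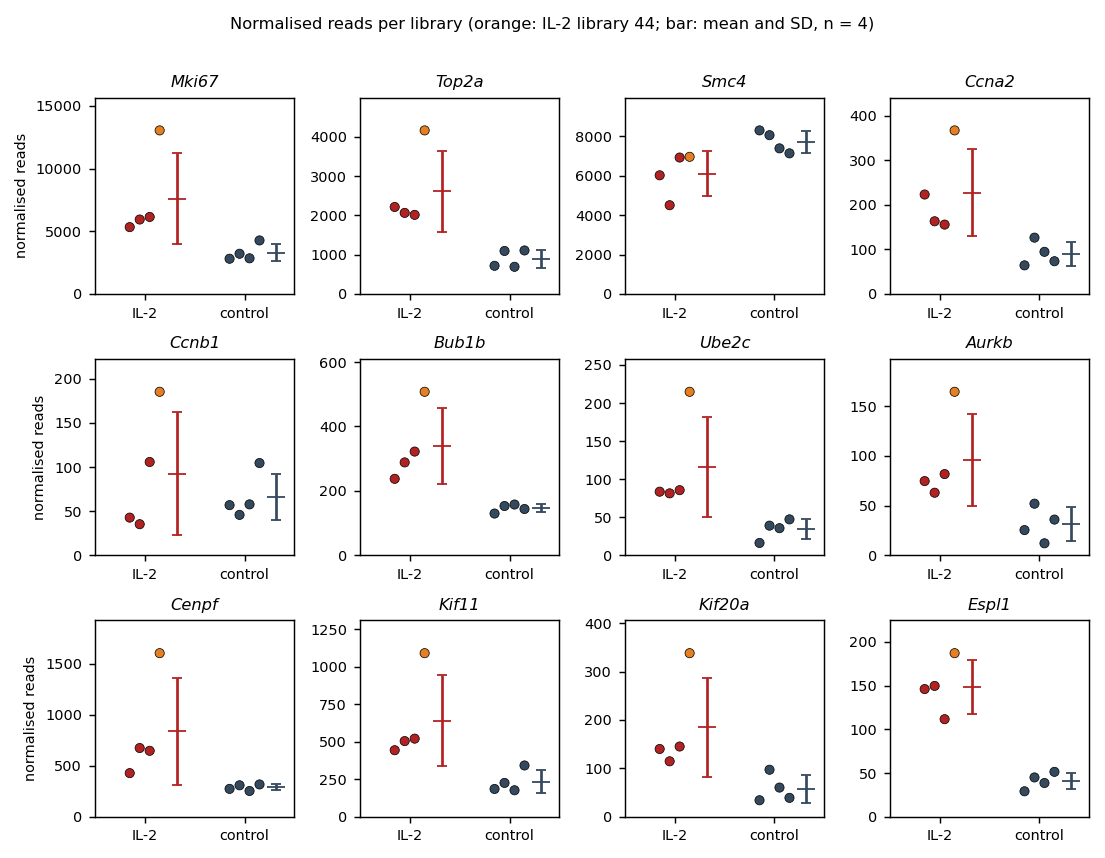
Normalised reads in each library for 12 mitotic genes, IL-2 left and control right, with library 44 in orange and the mean and SD (n = 4) as bars. Library 44 is the highest IL-2 value in every panel, libraries 41 to 43 lie above all controls in 10 panels, Ccnb1 overlaps, and Smc4 is lower with IL-2.

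Sister chromatids are held by cohesin, which Esco2 acetylates and Sgo1 protects at centromeres, until separase (Espl1) cuts it once its inhibitor securin (Pttg1) is destroyed. Of these 4 genes, 3 rose. Espl1 had 146, 149.6, 112 and 187 normalised reads in the IL-2 libraries, against 29.1, 45, 38.6 and 51.4 in the controls, 3.62-fold higher, and had the smallest p of the 54 genes (limma difference 0.40 ± 0.06 SE, adjusted p = 4.26e-04). Esco2 had 87.5, 104, 91.5 and 171 normalised reads in the IL-2 libraries, against 14.5, 27.5, 32.4 and 26.7 in the controls, 4.48-fold higher (adjusted p = 0.00117). Sgo1 had 98.8, 59.7, 88.1 and 166 normalised reads in the IL-2 libraries, against 39.9, 11.9, 40.8 and 20.1 in the controls, 3.66-fold higher (adjusted p = 0.00848). All 3 had no overlap between groups and still passed with any 1 library left out. Pttg1 had 77.1, 91.2, 86.1 and 102 normalised reads in the IL-2 libraries, against 136, 86.7, 124 and 131 in the controls (adjusted p = 0.223, interval -0.22 to 0.02). Securin was thus, with Smc4, 1 of 2 genes with a negative difference. Its libraries 42 and 44 lay inside the control range, and library 43 lay just below the lowest control.

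The spindle checkpoint genes gave 3 rises among 5. Ttk, the Mps1 kinase at the head of the checkpoint, had 52.8, 59, 29.5 and 76.3 normalised reads in the IL-2 libraries, against 2.67, 9.16, 0 and 16.4 in the controls, 7.71-fold higher (limma adjusted p = 0.00347). The controls averaged 7.05 reads, under the level of the filter, so Ttk entered the test through its IL-2 libraries. Without a filter its adjusted p was 0.00409, and without control library 48 its ratio was 13.8. Bub1b, which encodes the checkpoint protein BubR1, had 238, 289, 322 and 508 normalised reads in the IL-2 libraries, against 129.8, 153, 158 and 144 in the controls, 2.32-fold higher (adjusted p = 0.00425). The kinase gene Bub1 had 79.8, 66.2, 83.4 and 133 normalised reads in the IL-2 libraries, against 36.3, 22, 50.2 and 27.9 in the controls, 2.66-fold higher (adjusted p = 0.0123). The groups did not overlap for these 3. Bub3, which carries Bub1 and BubR1 to kinetochores and also acts outside mitosis, had 311, 336, 375 and 475 normalised reads in the IL-2 libraries, against 228, 328, 265 and 347 in the controls (adjusted p = 0.179). Mad2l1, whose product binds Cdc20, had 174, 122, 128 and 214 normalised reads in the IL-2 libraries, against 105, 74.9, 93.4 and 136 in the controls (adjusted p = 0.100). Both overlapped the controls.

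The target of the checkpoint is the anaphase-promoting complex, which Cdc20 activates and which marks proteins for destruction with the ubiquitin-conjugating enzyme Ube2c. Ube2c had 83.6, 81.4, 85.6 and 215 normalised reads in the IL-2 libraries, against 16.3, 39, 35.7 and 47.3 in the controls, 3.36-fold higher (limma adjusted p = 0.0162). Libraries 41 to 43 lay within a narrow span above every control. Cdc20 had 76.3, 70.9, 35.8 and 221 normalised reads in the IL-2 libraries, against 57.1, 31.3, 32.4 and 21.1 in the controls (adjusted p = 0.118). Its library 43 lay inside the control range, and its library 44 stood at 3.63 times the mean of libraries 41 to 43, the highest such ratio of the 55 genes. Its fold was 2.85, and 1.72 without library 44.

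The chromosomal passenger complex corrects wrong attachments and is made of the kinase Aurkb, the scaffold Incenp, survivin (Birc5) and borealin (Cdca8). Aurkb and Birc5 rose. Aurkb had 74.8, 63, 81.8 and 165 normalised reads in the IL-2 libraries, against 25.4, 52, 12.2 and 36 in the controls, 3.06-fold higher (limma adjusted p = 0.0209). Birc5 had 157, 187, 185 and 392.1 normalised reads in the IL-2 libraries, against 115, 92.6, 50.8 and 108 in the controls, 2.52-fold higher (adjusted p = 0.0174). The groups were apart for both genes. Incenp had 479, 375, 301 and 784 normalised reads in the IL-2 libraries, against 293, 216, 357 and 339 in the controls (adjusted p = 0.124), and Cdca8 had 165, 49.3, 57.3 and 161 normalised reads in the IL-2 libraries, against 27, 53, 56 and 100.02 in the controls (adjusted p = 0.257). Libraries 41 and 44 lay above every control for both genes, and library 42 for Incenp.

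Of 8 centromere and kinetochore genes, 3 rose: Cenpf, Knl1 and Nuf2. Cenpf, a large outer kinetochore protein, had 428, 674, 646 and 1603 normalised reads in the IL-2 libraries, against 273, 308, 253 and 317 in the controls, 2.91-fold higher (limma adjusted p = 0.0152). Knl1, the scaffold for the Bub proteins, had 321, 315, 338 and 779.9 normalised reads in the IL-2 libraries, against 136, 218, 123 and 211 in the controls, 2.55-fold higher (adjusted p = 0.0152). The groups were apart for both, with library 44 more than 2-fold above the mean of the other IL-2 libraries. The kinetochore motor Cenpe had 405, 614, 494 and 1272 normalised reads in the IL-2 libraries, against 322, 339.7, 287 and 426 in the controls (adjusted p = 0.0604), with library 41 inside the control range, and it passed without library 44 (adjusted p = 0.0471).

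The Ndc80 complex, which grips microtubules, is built from Ndc80, Nuf2, Spc24 and Spc25. Nuf2 had 122, 109, 114 and 359 normalised reads in the IL-2 libraries, against 36.2, 63.4, 44.9 and 86.6 in the controls, 3.05-fold higher (limma adjusted p = 0.0376), and 1.99-fold without library 44 (adjusted p = 0.0314). It missed the threshold without a filter (adjusted p = 0.0555). The other subunits did not pass: Spc24 had 247, 237, 224 and 319.8 normalised reads in the IL-2 libraries, against 147, 197, 209 and 225 in the controls (adjusted p = 0.136). Ndc80 was 2.06-fold and Spc25 3.23-fold higher (adjusted p = 0.0746 and 0.0697). Spc25 had 3.16 to 46.7 reads in controls, and its fold was 2.12 without library 44 and 5.08 without control library 48. Cenpa, the histone variant that marks centromeres, was 1.31-fold higher (adjusted p = 0.396).

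Of 8 genes for spindle motors and spindle assembly, 5 rose: Kif11, Kif15, Kif4, Tpx2 and Nusap1. Kif11, the motor that pushes the spindle poles apart, had 443, 504, 521 and 1090.2 normalised reads in the IL-2 libraries, against 185, 225, 177 and 342 in the controls, 2.75-fold higher (limma adjusted p = 0.00618). Kif15, a motor that helps keep the poles apart, had 355, 319.6, 339 and 709.5 normalised reads in the IL-2 libraries, against 186, 128, 88.8 and 156 in the controls, 3.08-fold higher (adjusted p = 0.0029). Tpx2, which nucleates microtubules and activates Aurora A, had 356, 438, 373 and 859 normalised reads in the IL-2 libraries, against 144, 150.2, 174 and 244 in the controls, 2.85-fold higher (adjusted p = 0.00499). In these 3 genes libraries 41 to 43 lay above every control and library 44 above them. Hmmr, a microtubule-binding protein of the spindle, had 165, 217, 182 and 480.3 normalised reads in the IL-2 libraries, against 159, 161, 100.3 and 153 in the controls (adjusted p = 0.128). All 4 IL-2 libraries lay above the highest control, library 41 by little and library 44 by most. The chromosome motor Kif4 and the spindle protein Nusap1 rose 2.91-fold and 2.41-fold (adjusted p = 0.0304 and 0.0454), and neither passed without library 44 (adjusted p = 0.0554 and 0.0567). Nusap1 also missed the threshold without a filter (adjusted p = 0.0656). The microtubule depolymerase Kif2c and the chromokinesin Kif22 were 2.67-fold and 2.04-fold higher without passing (adjusted p = 0.0843 and 0.143).

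Cytokinesis genes gave 2 rises among 6, Kif20a and Anln. Kif20a, a motor of the central spindle, had 140.0, 115, 145 and 338 normalised reads in the IL-2 libraries, against 34.1, 97.2, 60.3 and 39.1 in the controls, 3.2-fold higher (limma adjusted p = 0.0159), with no overlap. Anln, which encodes the ring scaffold anillin, was 2.87-fold higher (adjusted p = 0.0326). Kif23 and Racgap1 together form centralspindlin. Kif23 had 163, 87.3, 188 and 184 normalised reads in the IL-2 libraries, against 48.1, 106, 54.4 and 136 in the controls (adjusted p = 0.0872), with library 42 inside the control range. Racgap1 had 226, 249, 221 and 417 normalised reads in the IL-2 libraries, against 134, 221, 175 and 156 in the controls (adjusted p = 0.0648), where library 43 lay level with the highest control. Prc1, which bundles the midzone microtubules, had 220.2, 239.7, 168 and 529 normalised reads in the IL-2 libraries, against 115, 165, 94.3 and 215 in the controls (adjusted p = 0.101). Ect2, the activator of RhoA at the cleavage site, was 1.97-fold higher (adjusted p = 0.11). Groups overlapped for Kif23, Prc1 and Ect2.

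Library 44 was the highest IL-2 library for 50 of the 55 genes. Its reads stood at 1.08 to 3.63 times the mean of libraries 41 to 43, with a median of 2.08, while the median over all tested genes was 0.994. The ratio reached 1.5 for 46 of the 55 genes, against 8.54% of tested genes. By role, its median was 3.10 for the pair of anaphase-promoting complex genes, 2.47 for spindle genes and 2.46 for centromere and kinetochore genes, and 1.60 for cohesion and separation and 1.49 for the pair of transcription factor genes. That library 44 runs high for these genes was known when they were chosen, so these ratios are a description.

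The summed reads of the 55 genes were 25026, 24227, 26222 and 47445 in IL-2 libraries 41 to 44, against 18145, 19798, 17379 and 20778 in controls. As a share of all recovered reads this was 0.533% ± 0.197 with IL-2 and 0.340% ± 0.0289 in controls (SD, n = 4 each). The ratio of group means was 1.62, and 1.32 without library 44. The 4 genes with the most reads weigh most in this sum. Without Mki67, Top2a, Smc4 and Hmgb2 the remaining 51 genes gave a ratio of 2.12, and 1.67 without library 44.

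**Figure D4:**
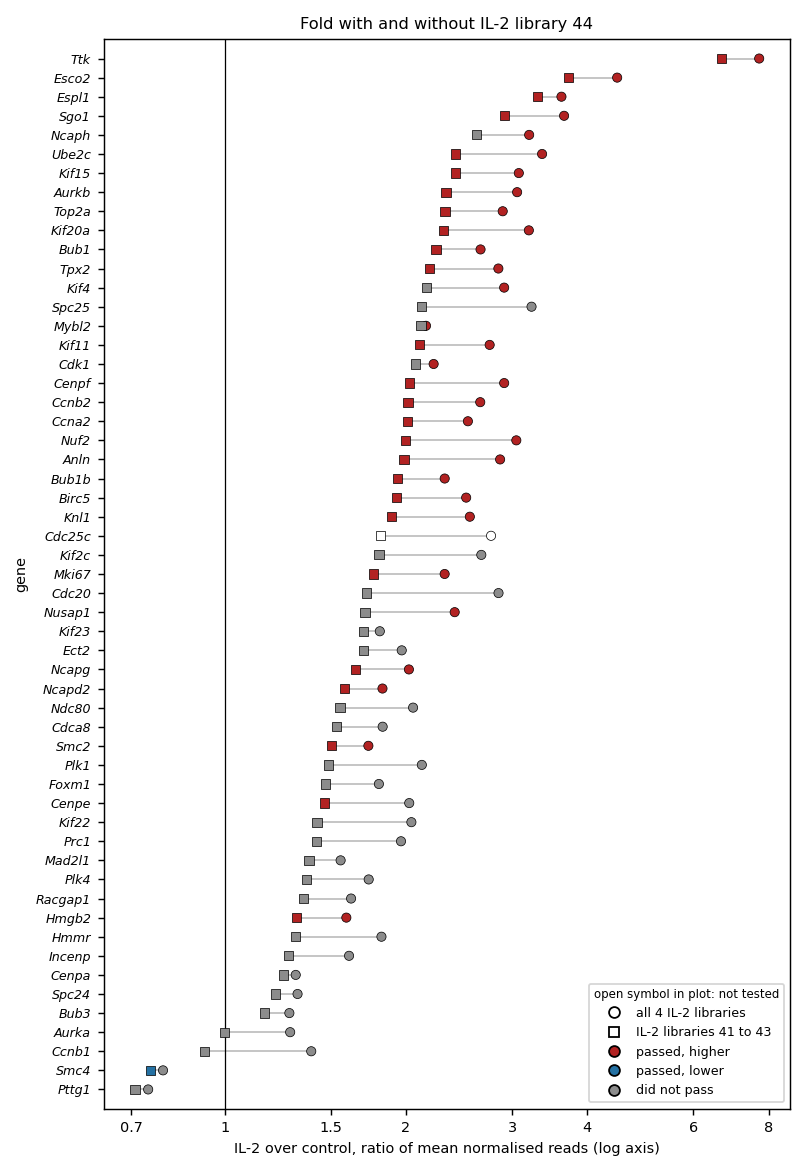
Ratio of mean normalised reads, IL-2 over control, on a log axis, for the 55 mitotic genes with all 4 IL-2 libraries (circles) and with libraries 41 to 43 (squares). Red genes passed the limma test as higher, the blue square as lower and grey did not pass; open symbols mark Cdc25c, which was not tested. Every gene moves left without library 44, 51 stay above 1, and Ttk, Esco2, Espl1 and Sgo1 keep the highest ratios.

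Genes of DNA replication and of G1 were set beside the mitotic genes to show where library 44 differed. Of 46 replication genes, 29 rose and 0 fell, with a median difference of 0.24, while 11.2% of all tested genes rose and 9.37% fell. Their summed reads were 16519.6, 17750.1, 15937 and 17152 with IL-2, against 9254, 10456, 10262 and 10154 in controls. Library 44 thus lay among the other IL-2 libraries for replication genes, with a median ratio of 1.01 to their mean. Mcm3 and Mcm7 of the replicative helicase and Uhrf1, which carries methylation marks through replication, rose 2.07-fold, 2.17-fold and 2.76-fold, with ratios of library 44 to libraries 41 to 43 of 0.849, 0.985 and 1.01. Of 18 tested G1 cyclins, kinases and inhibitors, 9 rose and 2 fell, with a median ratio of 0.988. The cyclin gene Ccnd2 and the kinase gene Cdk6 rose 1.69-fold and 2.58-fold, and Rb1, the restraint on G1 exit, fell 1.75-fold (limma adjusted p = 3.60e-05, 2.00e-05 and 1.34e-04).

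**Figure D5:**
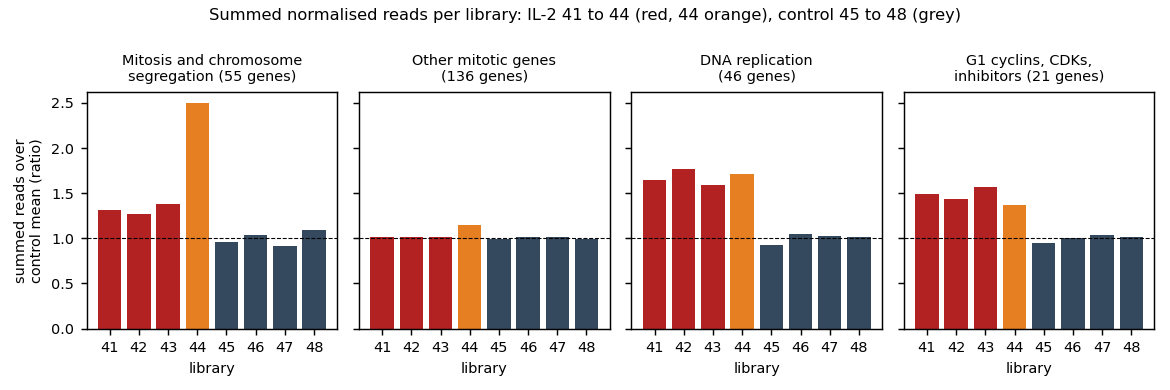
Summed normalised reads per library as a ratio to the control mean, for the 55 mitotic genes, 136 other mitotic genes, 46 DNA replication genes and 21 G1 genes; bars are single libraries, IL-2 left and control right. Library 44 reaches 2.49 in the first panel, where libraries 41 to 43 lie at 1.27 to 1.38, and 1.71 in the replication panel, where they lie at 1.59 to 1.77.

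A list of 136 other genes of mitosis, of which 130 were tested, was set beside these. In it 27 genes rose and 6 fell, with a median difference of 0.10, against 0.31 for the 54 genes above, while 11.2% of all tested genes rose and 9.37% fell. Without library 44, 19 rose and 4 fell. Of those named next as risen or fallen, Haspin, Cdca2, Cenph, Cenpm, Numa1, Cep192 and Wapl missed the threshold when some single library was left out, and Haspin, Cdca2, Numa1, Cenpm and Wapl did so without library 44.

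Among other mitotic kinases and regulators 4 of 22 rose and 0 fell. The Cdk1 inhibitor kinase Wee1 was 2.85-fold higher and the histone kinase Haspin 1.9-fold (limma adjusted p = 0.00413 and 0.0215). Nek7 and Cdca2 were the others (adjusted p = 0.0103 and 0.0395). Of 27 other spindle and centrosome genes, 8 rose and 2 fell. Spag5, Kif18b, Cep55 and Kif14 had the smallest p, 3.14-fold, 3.25-fold, 3.78-fold and 2.85-fold higher. Cep55 acts in the final cut between daughter cells and Kif18b on spindle microtubules. The spindle pole genes Numa1 and Cep192 fell 1.19-fold and 1.25-fold (adjusted p = 0.0308 and 0.0255).

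Of 28 other kinetochore and centromere genes, 6 rose and 0 fell. Kntc1 and Zwilch, of the complex that brings dynein to kinetochores, were 4.1-fold and 3.94-fold higher (Zwilch 6.31-fold without control library 45), and Kntc1 had the smallest p of that list (limma adjusted p = 4.00e-05). Cenph and Cenpm of the inner kinetochore were 2.84-fold and 3.15-fold higher, both from few reads (adjusted p = 0.016 and 0.0188). Cenph had 10.5 to 32.6 reads in controls. Cenpm averaged 38.96 reads with IL-2 and 12.35 in controls, just under the level of the filter. Cenpm thus passed the filter through its IL-2 libraries (adjusted p = 0.0184 without a filter).

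Condensin II and cohesin genes split, 4 rising and 3 falling among 16. The condensin II genes Ncapg2 and Ncaph2 rose 3.03-fold and 1.54-fold (limma adjusted p = 3.49e-04 and 0.00115). Cdca5, which encodes the cohesion factor sororin, rose 6.13-fold from few reads, 59.2 ± 23.6 with IL-2 and 9.66 ± 7.61 in controls (SD, n = 4 each), so it passed the filter through its IL-2 libraries (adjusted p = 0.00593, and 0.00756 without a filter). Pds5a rose 1.28-fold. The cohesin loader gene Nipbl, the subunit gene Stag2 and the release factor gene Wapl fell 1.32-fold, 1.27-fold and 1.14-fold (adjusted p = 3.14e-04, 0.00325 and 0.0476). Wapl missed the threshold whichever library was left out (adjusted p = 0.0502 to 0.117) and without a filter (adjusted p = 0.0536).

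Of 15 anaphase-promoting complex genes, Anapc5 rose 1.53-fold (limma adjusted p = 0.00319), and the other 14 did not pass. Over all tested genes 11.2% rose and 9.37% fell. Of 11 other cytokinesis genes, Arhgap11a, Septin9 and Iqgap3 rose (adjusted p = 0.0111, 0.00695 and 0.0153) and 0 fell. Iqgap3 averaged 43.2 reads with IL-2 and 8.01 in controls, so it too passed the filter through its IL-2 libraries (adjusted p = 0.018 without a filter). Its fold was 5.39, and 17.1 without control library 48. Among 11 genes of the DREAM and MuvB complexes, which repress mitotic promoters in resting cells, 1 rose and 1 fell, a share near that of all tested genes in each direction. Tfdp1, the partner of E2F factors, rose 1.82-fold, and Rbl2, the pocket protein of the resting-state complex, fell 1.55-fold with 1786, 1475, 1401 and 1611 normalised reads in the IL-2 libraries, against 2565, 2245, 2579 and 2363 in the controls (adjusted p = 5.63e-04 and 2.61e-04). The IL-2 libraries of Rbl2 all lay below the controls.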

How the data were processed

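Strand-specific total RNA libraries of flow-sorted spleen Tregs were made with a low-input kit, per the labels' protocols. The authors deposited 1 table of variance-stabilised values on a log2 scale. The submitters' processing notes name Salmon, DESeq2 and GRCm39; settings, annotation and filters are not given in these sources.

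Normalised reads were recovered by inverting the parametric variance-stabilising formula, whose scale is set by the lowest value, 8.688. In each library the 5 commonest values above it were whole multiples of 1 read within 0.001 (40 of 40), and size factors had a geometric mean of 1.000. One unit above the lowest value is 206 reads, so deposited differences understate folds of low genes. Salmon's estimated counts need not be whole, so no count test was run.

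A gene entered the test if its 8-library mean exceeded the lowest value by 0.25 (about 12.4 reads), a filter blind to the groups, which 10433 of 21524 did. limma 3.58.1 in R 4.3.3 (lmFit, eBayes with trend, no covariates) compared IL-2 with control, with Benjamini-Hochberg adjustment over all kept genes. Members, lists and rules were chosen with earlier results of these data known. Values in every library are given for up to 4 genes per role with the most reads and all genes of small roles. Others outside this rule were chosen after their values were seen (Cdk1, Plk1, Aurka, Cdc25c, Smc2, Ttk and Nuf2). Other lists were named by smallest adjusted p. Alternatives were other filters, scales, normalizations, variance models, the presence of Ddx3y as a covariate, and leaving out each library. Promoters came from RefSeq (GRCm38.p6). The fit was tested on simulated data with errors drawn separately for each gene, without a shift shared by genes in a library. It recovered 40% of differences of 0.25 on the deposited scale, 94% of 0.5, 98% of 1 and 100% of 1.5, with 5 false calls. Python 3.11.15 and matplotlib 3.10.9 made the tables and figures. One marker gene is not reported here.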

Additional observations from a re-analysis of the deposited data

Results flagged for a closer look

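Each of the 55 genes was looked at for a library far from the other 3 of its group, by the gap to its nearest neighbour as a share of the group's range (Dixon's 95% limit for 4 libraries). Of 110 groups, 21 passed, and 19 of the 21 were IL-2 library 44 as the highest. Chance flags about 1 in 20 groups, but library 44 was known to run high for these genes when they were chosen, and the genes share its library, so the flags describe that library and are no test of it. These were Mki67 at 13044 normalised reads, Top2a at 4162, Hmgb2 at 3177, Kif11 at 1090.2, Ncapd2 at 1058, Tpx2 at 859, Knl1 at 779.9, Kif15 at 709.5, Hmmr at 480.3, Nusap1 at 461, Racgap1 at 417, Ncapg at 399, Birc5 at 392.1, Nuf2 at 359, Kif20a at 338, Anln at 327, Ube2c at 215, Plk1 at 166 and Cdc25c at 41.7. The other 2 were control library 47 as the lowest of its group, for Nusap1 at 51.7 and Hmmr at 100.3 normalised reads.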

How the results depend on the processing

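The count of 30 genes that rose fell to 13 with a mean at least 1 above the lowest value, where only 17 of the genes were tested. It fell to 12 with the earlier filter of 4 in 8 libraries that far above it, where only 18 were tested. The earlier filter can let a gene in through the IL-2 libraries alone. Leaving out a library gave 21 to 33 rises, fewest without control library 45 or 47, and other settings 24 to 35. Of the 30, 18 passed with every library left out in turn, and 17 in all settings that tested them. The count of falls was 0 or 1 without a library and 1, always Smc4, with both filters, quantile normalization, median centring, array weights, and log2 reads without library 44. Ccnb1 changed sign without library 44, with a difference of -0.031 on the deposited scale and -0.19 on log2 reads; leaving out a single library gave -0.031 to 0.145. The summed-level ratio was 1.32 to 1.73. Of the other mitotic genes 10 and 11 rose with the stricter and earlier filters and 16 on log2 reads without library 44; leaving out a library gave 19 to 30 rises and 3 to 4 falls, fewest falls without control library 46 or 47, against 6 with all libraries. Replication genes gave 17 rises and G1 genes 4 with either filter. Over all tested genes, 16.8% rose with the earlier filter and 9.93% on log2 reads without library 44. Leaving out a library gave 969 to 1077 rises and 786 to 878 falls among all 10433 tested genes. How many genes of each list passed either filter is not given, so their counts are not read against the share over all genes. No paired analysis was possible because the groups share no replicate numbers. Settings for the other lists, and log2 reads without library 44, were added after seeing the data. Genes under 100 reads are limited by counting error.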
